A study of Mus musculus with 4 samples.

Results

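Chromosome 6 was represented by 10052 of the 170305 probes that were read on each array, 5.90% of them. Its members were all non-control probes placed on chromosome 6 of the mouse genome build mm9, apart from 198 probes in the loci of antigen receptors (T-cell receptor beta and immunoglobulin kappa) and 2 probes lost to outlier flags. The probes ran from base 3131098 to base 149512014, at a median spacing of 10.6 kb, and 6313 of them carried the name of a gene in the files, for 1010 genes in all. Genomic DNA came from the liver tumours 239, 240, 244 and 252, each from a different male FAH-/- Trp53-/- mouse kept for 6 months on 2.5% of the usual dose of NTBC, which is 7.5 mg per L of drinking water. It was compared on 2-colour arrays with liver DNA of 3 male FAH+/+ Trp53+/+ littermates, pooled as 1 control sample, for which the labels give no separate drug regimen. Tumour DNA was labelled with Cy5 and pool DNA with Cy3 throughout, without a dye swap. Both genes are knocked out in every tumour mouse and in no pool animal, so genotype and tumour cannot be told apart. The share of tumour cells in each piece of tissue is not given by the labels, and fewer altered cells and a smaller change per cell cannot be told apart.

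Array comparative genomic hybridisation measures how much DNA of a region a sample holds relative to another sample. The value used here is the log2 ratio of tumour over pool, with the median of the autosomal probes of each array set to 0, so it gives DNA content relative to the rest of the same genome and not a number of copies. In diploid cells, loss of a single copy in every cell would give a log2 ratio of -1 and gain of a single copy 0.58, and either would be smaller in size if only some cells carried it. Mouse chromosome 6 carries stretches that correspond to parts of human chromosomes 7, 4q, 2p, 3 and 12p. Among its genes are Met, the receptor kinase for hepatocyte growth factor, the kinase gene Braf, the von Hippel-Lindau gene Vhl, the Hoxa cluster, several imprinted genes and the natural killer gene complex. Neither Fah, a tyrosine catabolism gene, nor Trp53, the p53 gene, lies on chromosome 6.

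The measurements rest on single-stranded probes of about 60 bases. For Met, Ctnna2 and Foxp1, each in a different human-matching stretch, the probe whose difference between tumour 244 and the other 3 was the middle one of its gene is shown, because these genes carry the comparison along the chromosome. CG dinucleotides are in capitals, and the files do not give the strand.
Met probe, chr6:17498897-17498956: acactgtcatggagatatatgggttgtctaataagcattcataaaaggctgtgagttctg
Ctnna2 probe, chr6:77312480-77312539: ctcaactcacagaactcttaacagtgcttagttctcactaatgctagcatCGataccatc
Foxp1 probe, chr6:99050229-99050288: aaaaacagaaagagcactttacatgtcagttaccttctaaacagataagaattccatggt
The Met probe read -0.42, -0.57, -0.69 and -0.35 in tumours 239, 240, 244 and 252. The Foxp1 probe read -0.02, -0.24, -0.49 and -0.34 in the same order, so tumour 244 was lowest at both. As the probes were picked on that difference, this is a description only. The Ctnna2 probe read 0.17, -0.02, -0.23 and -0.26, where tumour 252 was lowest and tumour 244 lay beside it. The other results are means over many probes. Of the 10052 probes, 6564 held no CG, 2827 held 1 and 661 held 2 or more.

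Tumour 244 had less chromosome 6 DNA relative to its genome than the other tumours had relative to theirs. The mean log2 ratio over the chromosome was -0.029, -0.046, -0.254 and -0.006 in tumours 239, 240, 244 and 252, and averaged -0.084 ± 0.114 (SD, n = 4), or -0.027 without tumour 244. Only tumour 244 stood away from 0, with a linear ratio of 0.839 against the pool, while the linear ratios of the other 3 tumours were 0.980, 0.969 and 0.996. All 4 means were below 0 with this zero, but that of tumour 252 was 0.0035 with each array centred on its most frequent probe value. With signs flipped in all possible ways, the exact permutation test (two-sided) gave p = 0.125, the smallest value that 4 tumours allow, and 0.264 after Benjamini-Hochberg adjustment over the 19 autosomes, or 0.432 with the other centring, so the chromosome did not pass the test over the 4 tumours. The medians over probes were -0.00, -0.03, -0.24 and -0.00, and 50.7%, 54.4%, 77.6% and 50.1% of the probes lay below 0. Of all chromosome 6 probes, 74.1% were lowest in tumour 244, against 31.9% of all autosomal probes, while tumours 239, 240 and 252 were lowest at 14.9%, 6.89% and 4.16% of the chromosome 6 probes, against 29%, 17.6% and 21.6% of all autosomal ones. In tumour 244 the chromosome ranked 3 from the bottom of the 19 autosomes, and in tumours 239, 240 and 252 it ranked 8, 5 and 8 from the bottom.

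**Figure D1:**
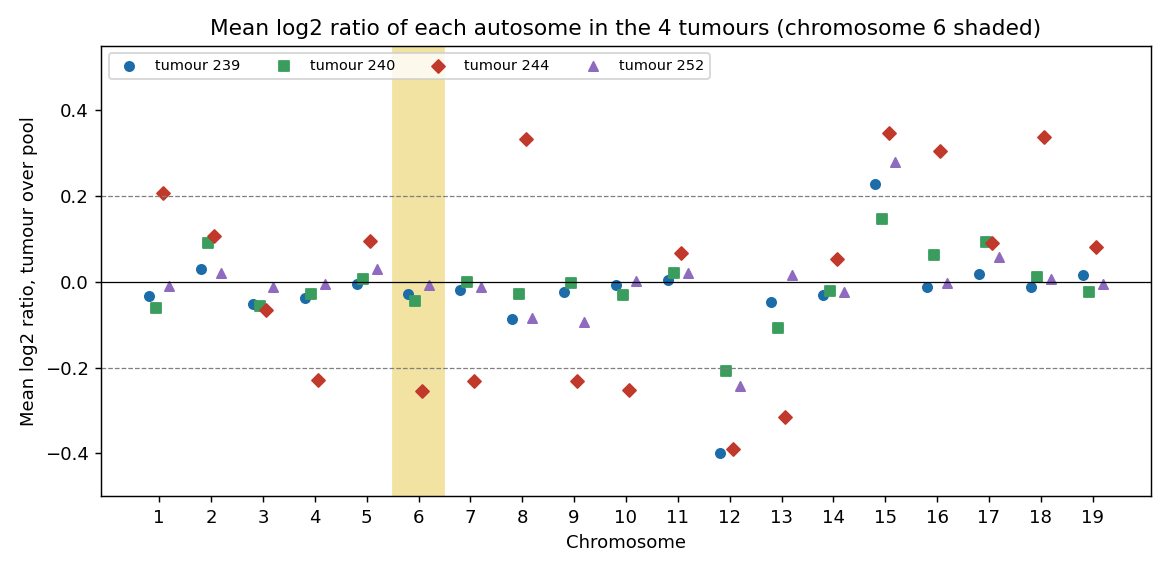
Mean log2 ratio of tumour over pool (vertical axis) for each of the 19 autosomes (horizontal axis), with 1 point per tumour, chromosome 6 shaded and dashed lines at -0.2 and 0.2. On chromosome 6 tumour 244 lies at -0.25 and the other 3 tumours lie between -0.05 and -0.01.

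Other chromosomes of tumour 244 lay at similar levels. Chromosomes 10, 9, 7 and 4 read -0.252, -0.232, -0.231 and -0.229 in it, and the next chromosome above them, chromosome 3, read -0.066. The difference between chromosomes 6 and 10 was -0.02, -0.01, -0.00 and -0.01 in tumours 239, 240, 244 and 252, which averaged -0.012 ± 0.008 (SD, n = 4; exact sign-flip p = 0.125, adjusted 0.25 over the 2 chromosomes compared). The difference between chromosomes 6 and 9 was -0.01, -0.04, -0.02 and 0.09, a mean of 0.004 ± 0.057 (exact sign-flip p = 1, adjusted 1), and without tumour 252 its sign turned, to -0.023. In tumour 252 chromosome 6 lay above chromosome 9, at -0.01 against -0.09. Neither comparison can pass a threshold of 0.05 with 4 tumours.

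The low level of tumour 244 ran along the whole chromosome. To take out ups and downs that all arrays shared, the median of the other 3 tumours was subtracted from each tumour probe by probe, which gave chromosome means of 0.06, 0.05, -0.22 and 0.09 for tumours 239, 240, 244 and 252. With tumour 244 left out, those of tumours 239, 240 and 252 were -0.003, -0.028 and 0.031, so 2 of the 3 positive differences turned and rest on tumour 244 being among the others. Over 30 bins of 5 Mb the difference of tumour 244 stayed between -0.25 and -0.20, with an SD of 0.012 between bins, where the spread of single probes alone would give 0.0096. In tumours 239, 240 and 252 the same difference stayed between 0.01 and 0.09, 0.02 and 0.08, and 0.06 and 0.12. Tumour 244 did not overlap with them in any bin, but part of that gap is built in, as it is among the others of each. In bins of 1 Mb, 145 of 145 were lowest in tumour 244, where 38.7% of all autosomal bins were, and the difference of tumour 244 ran from -0.28 to -0.16. All 145 bins had a log2 ratio below 0 in tumour 244, while 95, 103 and 82 of them did in tumours 239, 240 and 252. The other 3 tumours lay close together: 240 minus 239 averaged -0.02 over probes, 252 minus 239 averaged 0.02 and 252 minus 240 averaged 0.04. By contrast, 244 minus 239, 240 and 252 averaged -0.22, -0.21 and -0.25.

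**Figure D2:**
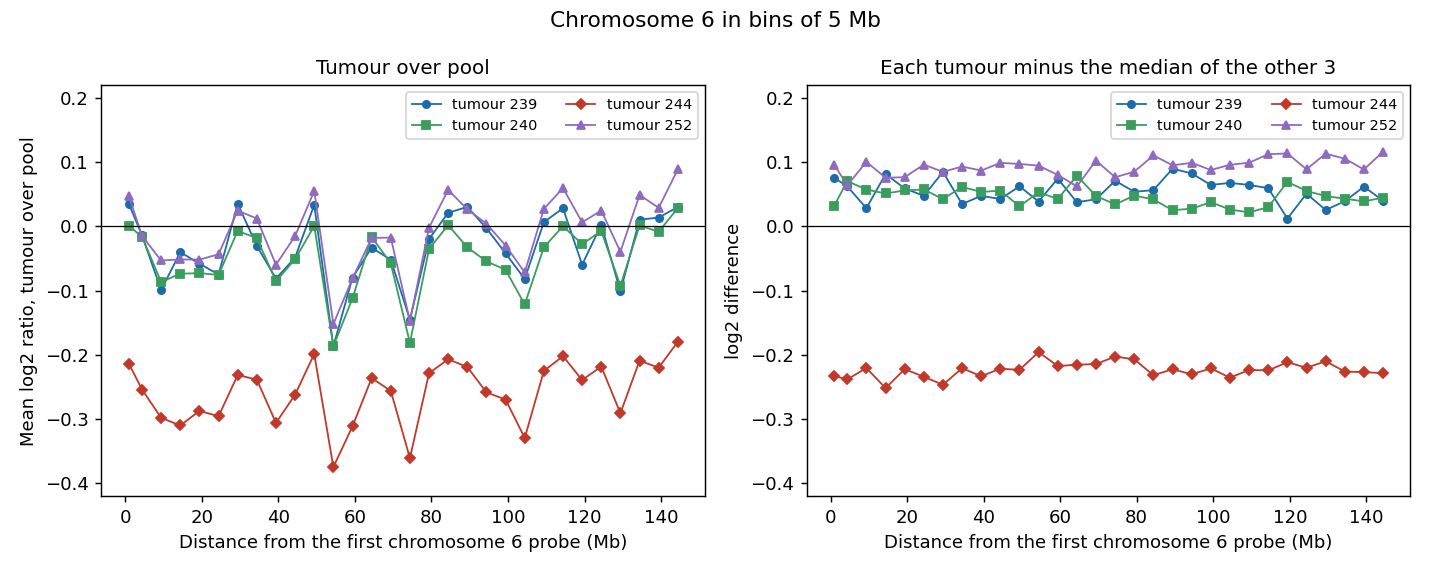
Mean log2 ratio of tumour over pool (left) and log2 difference between each tumour and the median of the other 3 (right), in 30 bins of 5 Mb, against the distance from the first chromosome 6 probe in Mb, with 1 line per tumour. On the left the lines of all 4 tumours move up and down together, and on the right tumour 244 stays between -0.25 and -0.20.

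With a penalty factor of 5, the only one run on the difference profile, no break point could be seen once the shared pattern was removed. A penalised least-squares segmentation of the difference profile returned 1 segment over the whole chromosome in every tumour. In chromosome 10 of tumour 244 it also returned 1 segment, and in chromosome 9 of tumour 244 it returned 2. On the log2 ratios themselves, a penalty factor of 10 gave 1 segment in each tumour. A factor of 2 gave 20, 14, 10 and 10 segments in tumours 239, 240, 244 and 252. At the factor of 5 there were 4, 2, 2 and 2 segments in the same order. The 2 segments of tumour 244 met at about chr6:112684001-112691412, at segment means of -0.26 proximal and -0.21 distal to it, and tumour 240 was split at the same probes, at -0.06 and -0.00. Segments with a mean of -0.2 or lower were counted as lost: they covered 100% of the chromosome 6 probes in tumour 244, against 36.6% of all its autosomal probes. They covered 1.27% in tumour 239 and 0% in tumours 240 and 252, against 4.84%, 3.67% and 4.45% of their autosomal probes, and no segment of the chromosome reached 0.2 in any tumour. At a threshold of 0.3 in place of 0.2 the share in tumour 244 was 0%.

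Each stretch that matches another human chromosome showed the same order of tumours. From Calcr, the calcitonin receptor, to Ghrhr, the growth hormone releasing hormone receptor, the human 7 stretch (chr6:3636555-55335453, 3593 probes) read -0.03, -0.04, -0.26 and -0.01 in tumours 239, 240, 244 and 252. The human 4q stretch that starts at Abcg2 (436 probes) was the lowest of the 5 in every tumour, at -0.08, -0.12, -0.31 and -0.08. The human 2p stretch from Smyd1 to Mxd1 (chr6:71169043-86605839, 1003 probes) read -0.06, -0.08, -0.27 and -0.04. These 3 stretches differed from each other in log2 ratio, and far less in the difference of tumour 244 from the other 3, which was -0.23, -0.21 and -0.21. The human 3 stretch that starts at Wnt7a (1631 probes) read -0.02, -0.06, -0.26 and -0.01, with a difference of -0.23 in tumour 244. The human 12p stretch was taken as all probes from Cacna1c to Tmtc1 (chr6:118554155-148388200, 2202 probes), without a check of the human match of each gene between them. It was the highest of the 5 in every tumour, at -0.01, -0.01, -0.22 and 0.03, with a difference of -0.22 in tumour 244. The antigen receptor loci left out read -0.05, -0.03, -0.25 and -0.05 over 63 probes at the first and -0.15, -0.06, -0.26 and -0.07 over 135 probes at the second.

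The ups and downs along the chromosome were shared by the 4 arrays, which have the pool DNA, the dyes and the slide in common. Pearson's r over the 30 bins of 5 Mb was between 0.92 and 0.98 for the 6 pairs of tumours, as a description. The lowest bin was that from 55 to 60 Mb, with 339 probes, at -0.19, -0.19, -0.37 and -0.15 in tumours 239, 240, 244 and 252, where the rest of the chromosome averaged -0.02, -0.04, -0.25 and -0.00. This dip was part of what all tumours shared, since the difference of tumour 244 from the others was -0.20 in the bin and -0.22 outside it. Probes at -0.5 or lower in all 4 tumours made up 40 of the 339 probes, 11.8%, against 2.94% of the other chromosome 6 probes. Without those probes the bin averaged -0.05, -0.04, -0.23 and -0.01, and the rest of the chromosome 0.00, -0.01, -0.22 and 0.03. As the probes left out were picked for being low, this rise was fixed in advance. The medians over all probes, which need no such choice, were -0.09, -0.11, -0.32 and -0.09 in the bin. Outside it they were -0.00, -0.03, -0.24 and 0.00, so the bin was also lower by its medians. With the main settings, the only segment counted as lost outside tumour 244 lay in this bin, at chr6:56322494-57976443 in tumour 239. Its 128 probes averaged -0.30, -0.27, -0.44 and -0.25 in tumours 239, 240, 244 and 252. The lost share of tumour 239 fell to 0% under normexp background correction and with the receptor loci kept. It was also 0% at a penalty factor of 10 and at a threshold of 0.3. With lone outlying probes not drawn in, 1.93% and 1.97% of the probes were counted as lost in tumours 239 and 240.

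The 3 probes that stayed lowest and the 3 that stayed highest over all 4 tumours are shown because they set the ends of the shared range; capitals mark CG dinucleotides as before. They were picked for being extreme in all 4 tumours, so their likeness between tumours is no result.
Low probe A, chr6:55485403-55485462: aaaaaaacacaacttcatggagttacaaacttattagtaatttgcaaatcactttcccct
Low probe B, chr6:56409614-56409673: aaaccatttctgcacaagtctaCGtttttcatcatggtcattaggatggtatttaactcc
Low probe C, chr6:56625846-56625905: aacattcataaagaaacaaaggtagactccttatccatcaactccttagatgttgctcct
Mturn probe, chr6:54638353-54638411: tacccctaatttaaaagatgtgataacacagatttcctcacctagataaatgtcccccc
Crhr2 probe, chr6:55080123-55080182: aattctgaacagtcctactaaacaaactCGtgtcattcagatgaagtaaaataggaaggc
A2m probe, chr6:121610338-121610397: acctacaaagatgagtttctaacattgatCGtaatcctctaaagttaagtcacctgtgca
The 3 low probes, none of which has a gene name in the files, lay in the lowest bin. Low probe A read -3.27, -3.02, -3.65 and -2.86 in tumours 239, 240, 244 and 252. Low probe B read -2.99, -3.32, -3.39 and -3.20, and low probe C read -2.82 in tumour 239, its highest, and -3.27 in tumour 244, its lowest. These values are below what loss of a single copy in every diploid cell would give, in each of the 4 tumours. The Mturn probe was highest, at 1.50, 1.51, 1.56 and 1.71. The Crhr2 probe read 1.20, 1.11, 0.85 and 0.97, and the A2m probe, from the alpha-2-macroglobulin gene, read 1.24, 0.94, 0.81 and 1.20. In all, 326 probes lay at -0.5 or lower in all 4 tumours, 3.24% of the chromosome against 3.21% of all autosomal probes. At 0.5 or higher in all 4 there were 48, which is 0.478% against 1.19%. No run of 3 or more neighbouring probes was low, or high, in all 4 tumours, and runs low in a single tumour's own values numbered 5, 7, 77 and 4 in tumours 239, 240, 244 and 252. The cut of -0.5 was fixed, while the lower quartile of all chromosome 6 probes was -0.18, -0.24, -0.46 and -0.23 in the same order. These counts therefore do not separate single stretches from the level of the whole chromosome. Pairs of neighbouring probes low in all 4 numbered 10. One of them lay in Herc6, a HERC family ubiquitin ligase gene, at -1.28, -1.17, -1.24 and -0.99, and another in Cpvl, a carboxypeptidase gene, at -1.18, -1.14, -1.43 and -1.29. The single pair that was high in all 4 lay in Grin2b, which encodes a glutamate receptor subunit, at 0.54, 0.84, 0.55 and 0.75. The genes of these pairs were chosen after their values were seen.

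Brightness moved with the log2 ratio of every tumour. The probes were split into 4 classes of 2513 by their signal in the pool, which is also the denominator of the ratio. From the dimmest to the brightest class the mean log2 ratio was 0.05, -0.01, -0.05 and -0.10 in tumour 239 and 0.14, 0.01, -0.09 and -0.24 in tumour 240. It was -0.04, -0.20, -0.31 and -0.47 in tumour 244 and 0.24, 0.06, -0.07 and -0.27 in tumour 252. The difference of tumour 244 from the other 3 was below 0 in each class, at -0.19, -0.22, -0.24 and -0.25. From the dimmest to the brightest class the same difference went from -0.07 to 0.20 in tumour 239 and from 0.20 to -0.01 in tumour 252. In tumour 240 it stayed between 0.03 and 0.06. Subtracting the other tumours thus did not take out brightness in tumours 239 and 252. The difference of tumour 244 was -0.20 at probes with under 35% G and C, -0.22 from 35% to under 37%, -0.23 from 37% to under 39% and -0.22 at 39% or more. It was -0.23 at probes with a gene name and -0.21 at probes without one, and -0.22, -0.23 and -0.25 at probes with 0, 1 and 2 or more CG dinucleotides.

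**Figure D3:**
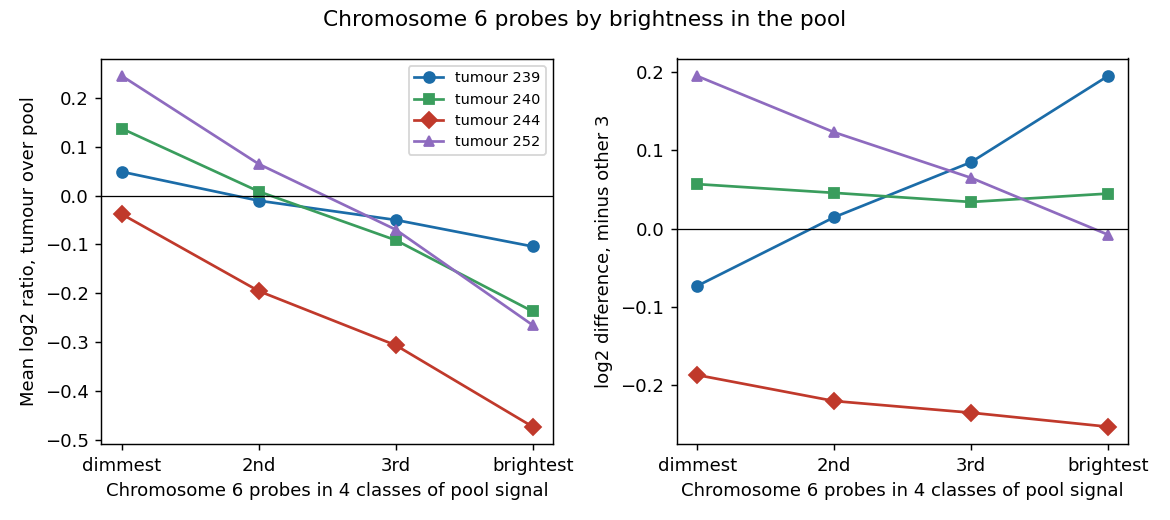
Mean log2 ratio of tumour over pool (left) and log2 difference between each tumour and the median of the other 3 (right) for 4 classes of the chromosome 6 probes ordered by pool signal, with 1 line per tumour. The ratio falls with pool signal in every tumour, and the difference of tumour 244 stays between -0.25 and -0.19.

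Gene by gene, tumour 244 was the lowest of the 4 at 887 of the 1010 genes, where it was the lowest at 36% of all autosomal genes. Among the 154 genes with at least 10 probes it was the lowest at 154, with differences from the other 3 between -0.38 and -0.06, and 153 of them were below 0 in it. In tumours 239, 240 and 252, 68, 87 and 72 of these 154 genes were below 0. The fit across all autosomal genes with limma, which tests the mean of the 4 tumours against 0, called 97 chromosome 6 genes higher and 220 lower at an adjusted p under 0.05. Of 1010 genes these are 9.60% and 21.8%, against a background of 21.2% higher and 17.7% lower over 17946 autosomal genes. The test sees only the spread between the 4 arrays. An offset that they share, from a probe or from the pool, is not in that spread, so a call cannot tell it from a change in the tumours. The calls went mostly to genes with few probes: 43.0% of the 349 genes with 1 probe were called and 9.09% of the 154 with at least 10, of which 0 were higher and 14 lower. The count of higher genes was 50, 149 and 44 without tumours 240, 244 and 252, and that of lower genes was 142 without tumour 240. Of 145 bins of 1 Mb, limma called 0 higher and 23 lower (15.9%), against 6.62% higher and 12.9% lower of all autosomal bins. At an unadjusted p under 0.05 it gave 0 higher and 55 lower. The autosomal share at that cut was not counted, so these counts have no background to be read against. The lower bins by adjusted p numbered 3, 11, 55 and 3 without tumours 239, 240, 244 and 252. Without tumour 244 there were also 12 higher.

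The 18 oncogenes with a probe were all lowest in tumour 244, with a median difference from the other 3 of -0.24. Over all chromosome 6 genes, 887 of 1010 were lowest in it, with a median difference of -0.23. The gene lists below are to be read beside these values of the whole chromosome. Met, on 12 probes, read -0.00, -0.16, -0.35 and -0.11 in tumours 239, 240, 244 and 252, averaging -0.15 ± 0.15 (SD, n = 4), which limma did not call (adjusted p = 0.106). Braf, a RAF kinase gene, read -0.09, -0.10, -0.26 and -0.02 on 12 probes (limma adjusted p = 0.176). In both genes tumour 244 was lowest and the other 3 lay nearer 0. Limma called 2 of the 18 lower and 3 higher, beside 17.7% and 21.2% of all autosomal genes. Ezh2, which encodes a histone methyltransferase, was called lower on 7 probes, at -0.16, -0.19, -0.37 and -0.13 (limma adjusted p = 0.0265). Wnt5b, a Wnt ligand gene, was called lower on 10 probes, at -0.04, -0.21, -0.50 and -0.21 (limma adjusted p = 0.0327). Both calls ended when tumour 240 or tumour 252 was left out, and that of Wnt5b also without tumour 244; under normexp background correction both ended, at means of -0.11. Ret, a receptor kinase gene, was called higher on 6 probes, at 0.26, 0.25, -0.02 and 0.37 (limma adjusted p = 0.0429), but its mean of 0.21 turned to -0.06 under normexp background correction and the call ended without tumour 239, 240 or 252. Pthlh and Fgf23, with 1 probe each, were also called higher.

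Mitf, a melanocyte lineage transcription factor gene with 22 probes, read 0.09, -0.03, -0.19 and 0.05 and was not called. Tgfa, which encodes an epidermal growth factor receptor ligand, read 0.07, -0.12, -0.34 and -0.02 on 7 probes. The Wnt ligand gene Wnt2 read 0.18, 0.10, -0.19 and 0.15 on 5 probes, so only tumour 244 was below 0. Wnt7a read 0.15, 0.05, 0.04 and 0.35 on 6 probes, where tumour 244 differed from the other 3 by -0.02 and lay beside tumour 240, but that difference was -0.24 over probes well above background and -0.18 under normexp background correction. Bcat1, a branched-chain aminotransferase gene, read -0.01, -0.01, -0.21 and -0.01 on 8 probes.

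Of the 17 tumour suppressors and cell-cycle inhibitors with a probe, tumour 244 was lowest at 15, with a median difference of -0.23, and limma called 4 lower and 1 higher (17.7% and 21.2% of all autosomal genes). Foxp1, a forkhead transcription factor gene, had the most probes, 48, and read 0.02, -0.05, -0.25 and 0.02 (limma adjusted p = 0.462). Etv6, an ETS transcription factor gene with 24 probes, read 0.07, -0.09, -0.30 and -0.05 (limma adjusted p = 0.327). Both had their 3 other tumours on either side of 0 and tumour 244 below them. Pparg, a nuclear receptor gene, was called lower on 12 probes, at -0.04, -0.32, -0.54 and -0.22 (limma adjusted p = 0.0217), and the call ended without tumour 240 or tumour 244. Dusp16, which encodes a phosphatase of MAP kinases, was called lower on 7 probes, at -0.31, -0.43, -0.58 and -0.32 (limma adjusted p = 0.00131). Vhl and Gadd45a, a growth arrest gene, were called lower on 1 probe each, Vhl at -0.30, -0.34, -0.56 and -0.51, and Ogg1, a DNA repair gene, was called higher on 1 probe. Under normexp background correction the calls of Pparg and Vhl ended, at means of -0.13 and -0.08. Setd5, Kdm5a, Rad18 and Fancd2, on 9, 6, 6 and 7 probes, were not called and read -0.29, -0.30, -0.19 and -0.10 in tumour 244. Ing4 and Cdkn1b had no probe.

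**Figure D4:**
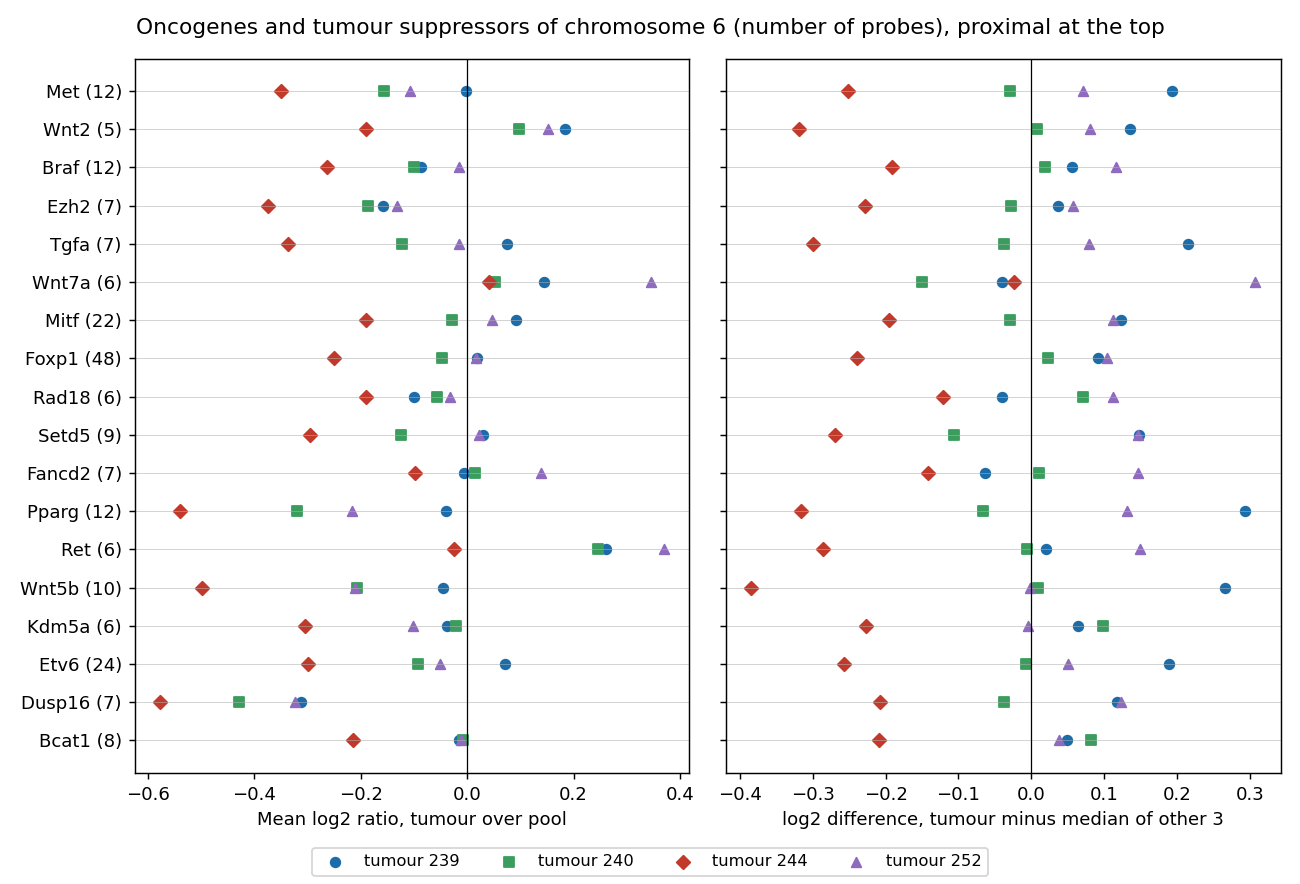
Mean log2 ratio of tumour over pool (left) and log2 difference between each tumour and the median of the other 3 (right) for 18 oncogenes and tumour suppressors of chromosome 6 with many probes (number in brackets), ordered from proximal to distal, with 1 point per tumour. Tumour 244 is the lowest point of the left panel for all 18 genes.

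Of 20 genes of liver metabolism and transport with a probe, tumour 244 was lowest at 17, with a median difference of -0.23, and limma called 9 lower and 0 higher (17.7% and 21.2% of all autosomal genes). Slco1b2, an organic anion transporter gene of hepatocytes, was called lower on 7 probes, at -0.31, -0.26, -0.39 and -0.12 in tumours 239, 240, 244 and 252 (limma adjusted p = 0.009). Aldh1l1, a folate dehydrogenase gene, was called lower on 5 probes, at -0.09, -0.35, -0.58 and -0.33 (limma adjusted p = 0.00854), a call that ended under normexp background correction, at a mean of -0.09. Abcg2, a drug efflux pump gene with 10 probes, read 0.04, 0.02, -0.16 and 0.13, and Slco1a4, another anion transporter gene, read 0.10, -0.19, -0.41 and -0.13. The hexokinase gene Hk2 read 0.19, 0.25, -0.01 and 0.31 on 4 probes, the highest mean of the list among genes with at least 3. In 2 of the 20 genes tumour 244 lay above the median of the other 3, taken probe by probe, though not above each of them. The single probe of Akr1b8, an aldo-keto reductase gene that has near-identical relatives beside it, read -0.16, 0.09, 0.39 and 0.53, a difference of 0.30. The glucose transporter gene Slc2a3, on 2 probes, read -0.09, -0.13, -0.14 and -0.26, a difference of 0.04. These are DNA ratios, and nothing was measured of the expression of these genes.

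The Hoxa cluster of patterning genes was covered by 2 of its 12 listed genes. Hoxa3 read 0.23, 0.25, -0.01 and 0.15 on 4 probes and Hoxa11 read 0.22, 0.27, -0.13 and 0.19 on 1 probe; limma called neither, and tumour 244 was lowest at both. The 7 imprinted genes with a probe were all lowest in tumour 244, with a median difference of -0.25. Ppp1r9a, on 28 probes, read 0.15, 0.09, -0.18 and 0.13, and Copg2, on 11, read 0.10, 0.02, -0.20 and 0.06. Asb4 was the lowest in this list among genes with at least 3 probes, at -0.02, -0.09, -0.43 and -0.16, and Sgce the highest, at 0.16, 0.15, -0.05 and 0.22. Mest and Peg10, expressed from the paternal allele, were called higher on 2 probes and 1 probe. Mest read 0.50, 0.80, 0.44 and 0.75 (limma adjusted p = 0.000302) and Peg10 read 0.38, 0.67, 0.24 and 0.57 (limma adjusted p = 0.0016). Under normexp background correction, their means of 0.62 and 0.46 turned to -0.05 and -0.48, so no direction holds for either.

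The 24 giant genes gave the closest view of single loci, since each spans many probes. All 24 were lowest in tumour 244 and below 0 in it, with differences from the other 3 between -0.31 and -0.18 and a median of -0.24. Cntnap2, a neurexin family gene with 218 probes, read -0.10, -0.11, -0.33 and -0.09 in tumours 239, 240, 244 and 252 (limma adjusted p = 0.0844). Ctnna2, a catenin gene with 113 probes, read -0.06, -0.15, -0.33 and -0.10. The 2 genes lie in different human-matching stretches and read alike in tumour 244. Limma called 0 of the 24 higher and 3 lower, beside 21.2% and 17.7% of all autosomal genes. Among the lower were the glutamate receptor genes Grm7 and Grm8. Creb5, a transcription factor gene with 22 probes, had the highest mean, at 0.17, 0.13, -0.12 and 0.13.

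The natural killer gene complex, a cluster of receptor genes on the distal part of the chromosome, had 29 listed genes with a probe. Many are near-identical copies, so their probes may read several genes, and their values are uncertain. Tumour 244 was lowest at 23 of the 29, with a median difference of -0.22, and limma called 5 higher and 7 lower (21.2% and 17.7% of all autosomal genes). Klra1, with the most probes, 18, read -0.19, -0.14, -0.33 and -0.01 in tumours 239, 240, 244 and 252, and Klra17 read -0.09, -0.14, -0.29 and -0.16 on 6. At Klra2 tumour 239 was lowest, at -0.24, 0.13, -0.22 and -0.00 on 3 probes. Of 13 taste and vomeronasal receptor genes with a probe, tumour 244 was lowest at 9, with a median difference of -0.19, and limma called 0 higher and 3 lower (21.2% and 17.7% of all autosomal genes). Vmn2r24 read -0.19, -0.08, -0.27 and -0.12 and Vmn2r27 read -0.05, 0.13, -0.01 and 0.24, on 4 probes each.

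Genes with at least 10 probes that stood farthest from the other tumours were spread over the chromosome. In tumour 244 the 3 lowest by difference were Wnt5b at -0.38, Cftr, a chloride channel gene, at -0.37 and Ica1, an islet autoantigen gene, at -0.33. Cftr read -0.00, -0.15, -0.49 and -0.13 on 16 probes and Ica1 read -0.05, -0.01, -0.34 and -0.01 on 17. The least different from the others in tumour 244 were Cecr2, a chromatin remodelling gene, at -0.06, an unnamed transcript listed as ENSMUST00000125353 at -0.10 and Dnah6, a dynein gene, at -0.12. In tumour 239 the differences ran from -0.20 at Slco1a6, -0.09 at ENSMUST00000125353 and -0.08 at Tmtc1 up to 0.23 at Mkln1, 0.27 at Wnt5b and 0.29 at Pparg. In tumour 240 they ran from -0.13 at Iqsec1, -0.11 at Slc25a26 and -0.10 at Mkln1 up to 0.14 at Bicd1, 0.17 at Slco1a6 and 0.19 at Tspan12. In tumour 252 the low end included -0.02 at ENSMUST00000131334 and -0.00 at Wnt5b, and the high end reached 0.20 at Iqsec1, 0.21 at Atf7ip and 0.21 at Add2. These extremes were picked by their size and have no test.

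The zero of each array limits what a log2 ratio near 0 means. Taking the most frequent mean of the 1 Mb bins as the zero in place of the autosomal median moved it by -0.005, -0.01, 0.105 and -0.005 in tumours 239, 240, 244 and 252. With that zero chromosome 6 of tumour 244 lay at -0.36, and its difference from the other 3 at -0.34. The spread of single probes on the chromosome had an SD of 0.31, 0.35, 0.36 and 0.38, and at least 98.8% of its spots were well above background in both colours on each array.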

How the data were processed

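DNA of 4 liver tumours was hybridised against 1 wild-type liver pool of 3 littermates on Agilent 2-colour mouse CGH arrays, with mm9 positions per the file headers. A single slide and scan held all 4, so there was no batch to test. Software for image reading was Agilent Feature Extraction 12.0.0, per the submitters' processing notes. Background subtraction and dye normalisation had been applied to the deposited processed intensities, per the file headers. The authors also deposited log10 ratios of tumour over pool, per spot; their value table repeats these log10 values uncentred (medians 0.0023, 0.00233, 0.00131 and 0.000212). Unprocessed intensities are scanner brightness, per the file headers, and other columns are flags.

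From the 180880 spots of an array, 6575 controls and 95 to 120 outliers were dropped. Log2 ratios were computed from the deposited processed intensities, spots of a probe were averaged, and each array was centred on its median over autosomal probes, with no loess. The receptor loci of chromosome 6 were part of that median, and 161219 autosomal probes remained once they were dropped. The number of arrays, 4, limits the precision. The labels tie each tumour to a separate animal, and the pool's own spread is left out of every test.

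Genes and 1 Mb bins of at least 5 probes were tested in R 4.3.3 by limma 3.58.1 (an intercept, eBayes, Benjamini-Hochberg at 0.05 over all autosomes). Chromosomes were tested with exact sign-flip permutation tests. Segmentation minimised squared error with a penalty factor of 5 and at least 10 probes a segment, after lone probes were drawn in to 3 noise SDs of a running median over 21 probes. Both were tested on simulated data. Other steps used Python 3.11.15, numpy 2.4.6, pandas 2.3.3, scipy 1.17.1, numba 0.67.0 and matplotlib 3.10.9.

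Of the gene names on the chromosome, 839 matched a symbol and 40 a synonym in a RefSeq table of GRCm38.p6, used for names only, and 133 kept the files' name. A gene's value is the mean of its probes. Named were up to 20 oncogenes and suppressors with most probes. Of every other list the 3 genes with most probes, and the lowest and highest with at least 3, were named, and per tumour the 3 lowest and highest genes with at least 10 probes by difference. Pthlh, Fgf23, Vhl, Gadd45a, Ogg1, Grm7, Grm8, Mest, Peg10, Akr1b8 and Slc2a3 were chosen after their values were seen. Some named genes are not reported here. Members and lists were chosen with earlier results of these data known.

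Alternatives were other centring, normexp (offset 50), the value table, lowess, a filter on dim probes, the receptor loci kept, other thresholds and segment sizes, robust eBayes, 5 Mb bins, and leaving out each tumour.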

Additional observations from a re-analysis of the deposited data

Results flagged for a closer look

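Dixon's test was applied to 65 values with 4 tumours each, the chromosome mean, the 5 human-matching stretches and the named genes. In 9 of them 1 tumour stood apart from the other 3, and in all 9 it was tumour 244, the lowest. Chance alone flags about 1 in 20 groups, but that rate does not apply here, since the values share probes and arrays and 6 of the 59 genes were named for their difference in tumour 244, 18 for one in any tumour. The chromosome 6 mean stood apart at -0.254 in tumour 244, against -0.006 to -0.046 in the others. So did the human 7, 4q, 2p and 12p stretches, at -0.262, -0.314, -0.269 and -0.221 in tumour 244. Among genes, Bcat1 read -0.214, Cntnap2 -0.333, Creb5 -0.121 and Ica1 -0.344 in tumour 244; Ica1 was named for its low difference there.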

How the results depend on the processing

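Chromosome 6 of tumour 244 lay between -0.359 and -0.239, and its difference from the other 3 between -0.336 and -0.215, under the alternatives run; every probe of it was counted as lost in each but a threshold of 0.3, which gave 0%. The 97 genes called higher became 52 with the mode of 1 Mb bins as the zero, an alternative added after seeing the data, 9 with at least 5 probes, and 44 to 149 with 1 tumour left out. The 220 called lower became 343 under normexp, 63 with at least 5 probes and 142 to 231 with 1 tumour left out. The 23 lower bins became 6 with the mode of bins, 41 under normexp, 2 as 5 Mb bins and 3 to 55 with 1 tumour left out, and the 0 higher bins became 0 to 12. The 0 low runs shared by all 4 became 8 under normexp, 2 under lowess, 13 at a threshold of 0.3 and 0 to 2 with 1 tumour left out. The cause of these shifts was not tested. The difference from chromosome 9 ran from -0.023 to 0.020 with 1 tumour left out and was negative, at -0.023, without tumour 252. Under normexp the means of Ret, Mest and Peg10 turned to -0.0573, -0.0540 and -0.48. Among all values recomputed, 40 gene calls were lost with the direction kept, 29 values moved and 7 changed sign, 3 of the 7 being values near 0: the mean of tumour 252 (0.0035 with centring on the mode) and, without tumour 244, the differences of tumours 239 and 240 from the others (-0.003 and -0.028). No paired analysis was possible because all 4 tumours form 1 group against 1 pool. Without more pools, the control's spread stays unmeasured.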
